A study of Oryza sativa with 9 samples.

Results

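Of the 9 RNA-seq libraries of rice panicles, 2 libraries of different genotype, 58Z-1 and WT-1, shared part of their difference from their own replicates. They were chosen by their place on the first principal component of these same gene counts, which held 30.6% of the variance. There 58Z-1 and WT-1 lay at -126 and -114, while 58Z-2, WT-2 and WT-3 lay at -21.3, -14.9 and -7.27. The libraries 58Z-4b and 58Z-5b lay at 18.7 and 9.60, and 58CRIS-1 and 58CRIS-2 lay at the other end, at 123 and 132. The 2 libraries were not alike in all respects. On the first component of the 5 libraries 58Z-1, WT-1, 58Z-2, WT-2 and WT-3 alone (39.3%), 58Z-1 lay at 155 and WT-1 at 25.6, and over all genes tested WT-1 had a Pearson r of 0.944 with WT-2 and 0.946 with WT-3, above its 0.932 with 58Z-1. Each gene's deviation was measured inside its genotype, as 58Z-1 minus 58Z-2 and as WT-1 minus the mean of WT-2 and WT-3. Since the choice of the pair used these counts, the deviations are given as a description and carry no test.

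The study asked what OsMADS58 does in the early stamen, using panicles of about 1 cm in which the stamens are at early stages. The 4 58Z libraries come from osmads58 dSpm, a line with a transposon in an intron of the gene that keeps some transcript and stays fertile, so it is no null mutant. The 2 58CRIS libraries come from 2 independent male-sterile CRISPR knockout lines, each a mix of panicles from several plants, and the 3 WT libraries come from the wild type, Nipponbare. The labels give the plants of 58Z and 58CRIS only as homozygous osmads58 mutants, and no treatment separates any of the libraries. No source used here says that 58Z-1 and WT-1 shared a day, a field or a sequencing run, although both carry the number 1.

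OsMADS58 is a C-class MADS-box transcription factor, one of the regulators that give stamens and carpels their identity. In a young panicle most cells are still dividing or starting to differentiate, and inside the anthers a small group of germ cells prepares for meiosis, when chromosomes pair and recombine. Transcripts of meiotic and cell cycle genes therefore change quickly with developmental stage, and in whole panicles a smaller share of a cell type and less RNA per cell cannot be told apart.

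The 2 libraries were not shallow. Their counts summed to 80290243 in 58Z-1 and 83042245 in WT-1, against 65192657 to 81967818 in the other 7 libraries. They nevertheless had the fewest genes with any count, 25368 in 58Z-1 and 25898 in WT-1, against 26569 to 29185 elsewhere. The 50 most abundant genes took 12.1% of the counts in 58Z-1 and 11.9% in WT-1, against 8.41% to 11.1% in the others. Their scaling factors by the trimmed mean of M-values (TMM) were also the lowest, 0.927 and 0.878, against 0.957 to 1.11. The part of these library properties in the deviations was not tested.

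Among 27251 genes with enough counts, 948 lay over 1 on the log2 scale of CPM (counts scaled to a common library size) in both deviations and 1911 lay under -1 in both. These are 3.48% and 7.01% of the genes. The genes nearest to that size in each direction lay within 0.01 of it on either side. Far fewer genes moved in opposite directions by that much, 443 up in 58Z-1 and down in WT-1 and 398 the other way round. Most of the 1911 genes were weakly expressed. The median level over the 5 libraries was 0.868 CPM for the higher genes and 0.790 CPM for the lower ones, against 8.51 CPM for all genes.

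**Figure D1:**
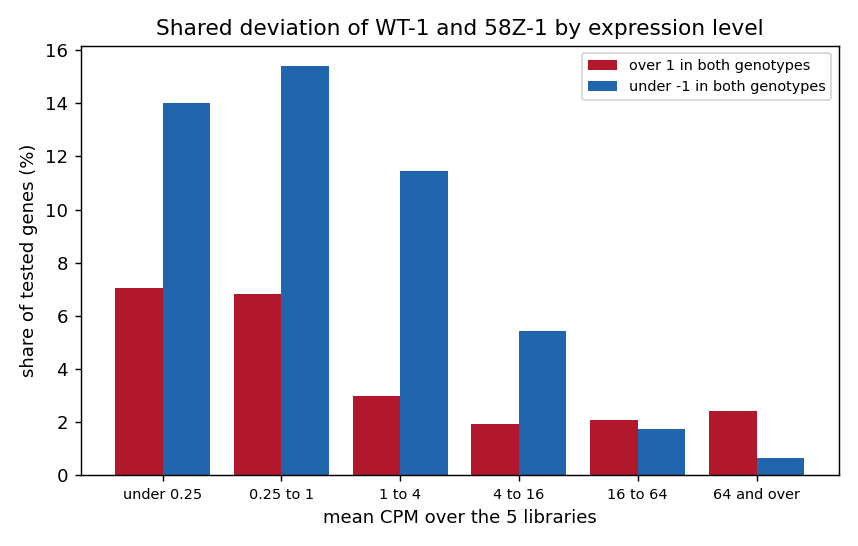
Share of tested genes, in percent, over 1 (red) or under -1 (blue) on the log2 scale in both 58Z-1 and WT-1, by mean CPM over the 5 libraries. Below 1 CPM the lower genes are at 14.0% and 15.4%, and at 64 CPM and over they are at 0.670%, below the higher genes at 2.42%.

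With TMM scaling the balance between the directions turned with expression level. Below 0.25 CPM, 264 genes were higher and 526 lower, but at 64 CPM and over 101 were higher and 28 lower. Low levels are also where replicates disagree. WT-2 and WT-3 differed by over 1 in 49.9% of the genes below 0.25 CPM and in 0.215% of those at 64 CPM and over. The 13013 genes that averaged at least 10 CPM over the 5 libraries were therefore looked at separately, a limit chosen after the values had been seen. There 289 genes were higher and 220 lower in both libraries, which is 2.22% and 1.69%. Which direction held more genes depended on the scaling, since upper-quartile factors in place of TMM gave 198 higher and 281 lower. Genes that moved in opposite directions numbered 9 with 58Z-1 up and 8 with WT-1 up.

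The differences between libraries of 1 genotype are given at this level as a description, since the pair was chosen for standing apart. A log2 difference of over 1 was seen in 11.5% of the genes between 58Z-1 and 58Z-2 and in 8.21% between WT-1 and the mean of WT-2 and WT-3. It was seen in 0.246% between WT-2 and WT-3, in 0.430% between 58Z-4b and 58Z-5b and in 0.607% between the 58CRIS libraries. Against the mean of 58Z-4b and 58Z-5b it was seen in 15.1% of the genes for 58Z-1 and in 7.93% for 58Z-2, so 58Z-2 was about as far from the other 58Z libraries as WT-1 was from its replicates.

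Across the genes of at least 10 CPM the deviations of 58Z-1 and WT-1 had a Pearson r of 0.58 and a Spearman rho of 0.62, and 73.3% of the genes had the same sign in both. Over all 27251 genes r was 0.32, rho 0.41 and the share of equal signs 65.6%. No library enters both deviations, and genes are not independent replicates. With 58Z-4b and 58Z-5b in place of 58Z-2, r was 0.58 at 10 CPM and over and 0.26 over all genes. The difference between 58CRIS-1 and 58CRIS-2 had an r of -0.05 with the 58Z deviation and 0.01 with the WT deviation at 10 CPM and over.

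**Figure D2:**
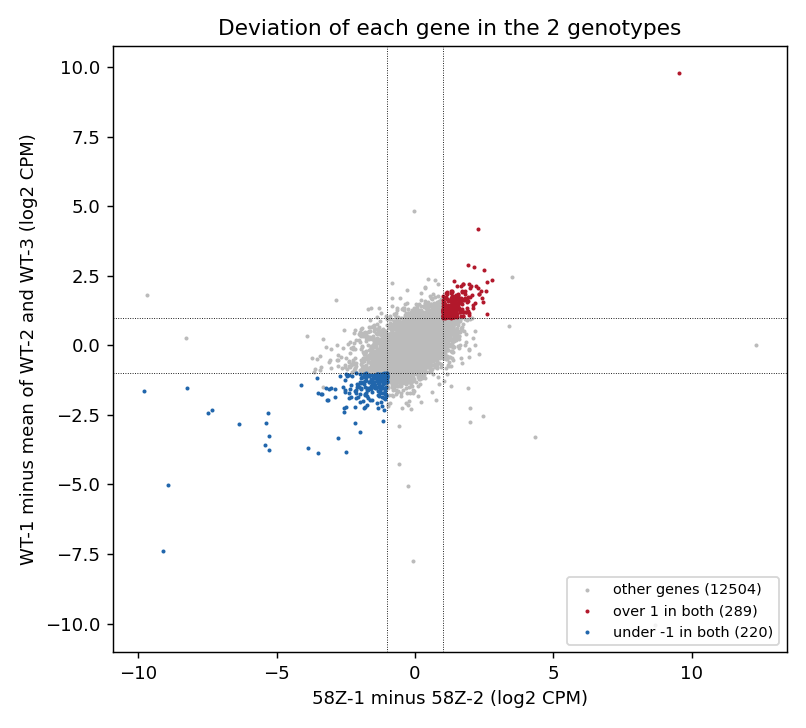
Deviation of each of the 13013 genes of at least 10 CPM in 58Z-1 (x axis) and in WT-1 (y axis), on the log2 scale of CPM. The cloud runs along the diagonal, with 289 genes over 1 in both (red), 220 under -1 in both (blue), and 1 gene, LOC_Os12g37415, far above all others.

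At 10 CPM and over, most of the higher genes were high in no other library, while many of the lower genes were also low in some of the others. The 289 higher genes had a median log2 level of 1.36 in 58Z-1 and 1.28 in WT-1 relative to the mean of 58Z-2, WT-2 and WT-3. In the same scale they were at 0.01 in 58Z-4b and -0.02 in 58Z-5b, and at -0.16 and -0.26 in the 58CRIS libraries. Of the 289, 272 were higher in both libraries of the pair than in each of the other 7. Over all genes of at least 10 CPM, 24.3% lay above the other 7 libraries in this way. The 220 lower genes were at -1.66 in 58Z-1 and -1.36 in WT-1, at -0.57 and -0.45 in 58Z-4b and 58Z-5b, and at -0.20 and -0.31 in the 58CRIS libraries. Of these, 139 lay below all of the other 7, against 12.4% of all genes of at least 10 CPM. The rule that picked the shared genes already set 58Z-1 apart from 58Z-2, and WT-1 apart from WT-2 and WT-3. Part of both counts is therefore fixed by that choice.

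**Figure D3:**
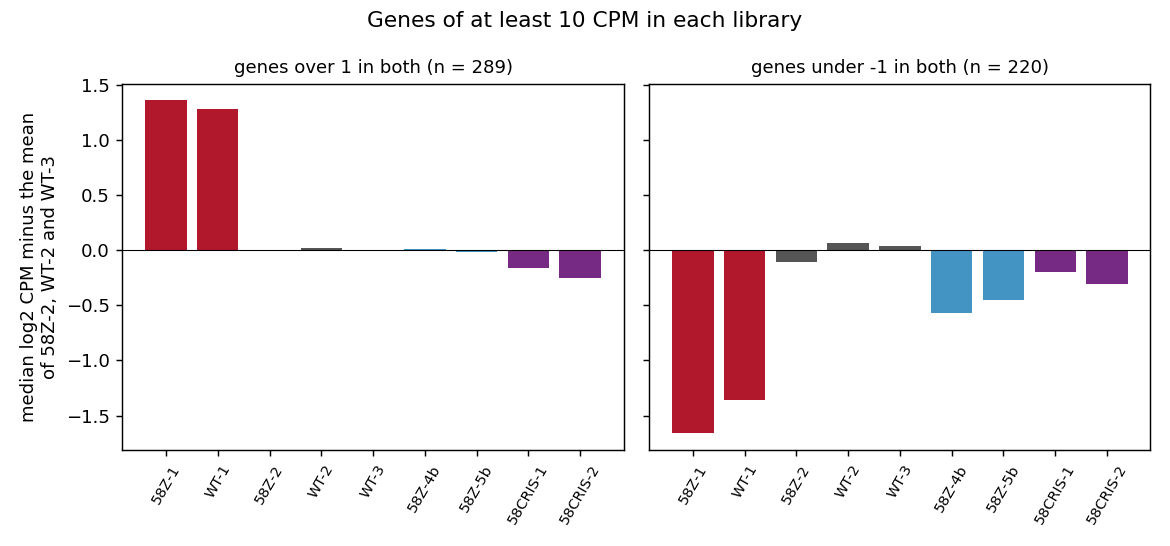
Median log2 CPM of the genes shared by 58Z-1 and WT-1, in each of the 9 libraries, relative to the mean of 58Z-2, WT-2 and WT-3 (bars, 1 library each). The left panel holds the 289 higher genes and the right panel the 220 lower ones. The other 7 libraries stay between -0.26 and 0.02 on the left, and 58Z-4b and 58Z-5b reach -0.57 and -0.45 on the right.

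Set against 58Z-4b and 58Z-5b, 58Z-1 was beyond 1 in the same direction in 237 of the 289 higher genes (82.0%) and in 137 of the 220 lower genes (62.3%). Over all genes of at least 10 CPM, 15.1% were beyond 1 in either direction. The same 58Z-1 values picked the shared genes, so their shares are raised by that choice and are no support. Of the 948 and 1911 genes of any level, the shares were 53.0% and 71.3%. The mean of 58Z-4b and 58Z-5b was nearer to the pair than to 58Z-2, WT-2 and WT-3 for 25 of the 289 higher genes (8.65%) and for 84 of the 220 lower genes (38.2%). Over all levels this turned round, with 429 of the 948 higher genes (45.3%) and 500 of the 1911 lower genes (26.2%), and the 948 had a median log2 level of 0.68 in 58Z-4b and 0.82 in 58Z-5b. The shared genes of at least 10 CPM came from every chromosome. The higher genes made up 1.26% of those on chromosome 6 and 3.26% of those on chromosome 9, the lowest and the highest share. For the lower genes the shares ran between 0.897% on chromosome 5 and 2.19% on chromosome 8.

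Many of the largest differences downward, but few of those upward, divided the libraries in another way. Among genes of at least 10 CPM, 11 were higher and 19 were lower by over 2 on the log2 scale in both genotypes, and the mean of 58Z-4b and 58Z-5b lay nearer to the pair for 2 of those 11 and for 15 of those 19. LOC_Os12g37415 was at 99.7 CPM in 58Z-1 and 109 CPM in WT-1, against 0.107, 0.0941 and 0.102 CPM in 58Z-2, WT-2 and WT-3. It was at 101.2 and 80.3 CPM in 58Z-4b and 58Z-5b and at 0.0944 and 0.0786 CPM in 58CRIS-1 and 58CRIS-2. The gene was thus close to all or nothing, present in 4 libraries of 2 genotypes and nearly missing in the other 5. Its deviations were 9.55 in 58Z and 9.77 in WT, and between 58CRIS and 58Z-4b with 58Z-5b the log2 fold change was -10.00 by the quasi-likelihood test of edgeR, with a standard error of 0.22 and a Benjamini-Hochberg adjusted p of 8.59e-06.

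LOC_Os05g39310 was the reverse case, with 0 counts in 58Z-1 and 10 counts in WT-1, against 932, 1913 and 2281 counts in 58Z-2, WT-2 and WT-3. It had 4 and 7 counts in 58Z-4b and 58Z-5b and 2.97 and 1.21 CPM in the 58CRIS libraries. A count of 0 in 58Z-1 allows up to 3 counts, or 0.0403 CPM, by counting error alone. LOC_Os06g04940 had 0 counts in 58Z-1 and 55 in WT-1, against 836, 1978 and 1859 counts in 58Z-2, WT-2 and WT-3. LOC_Os06g04940 had 57 and 25 counts in 58Z-4b and 58Z-5b and 43 and 16 counts in 58CRIS-1 and 58CRIS-2. Its low level was thus not particular to the pair, and 58CRIS shared it. In both genes 58Z-4b and 58Z-5b sided with the pair, and 58Z-2 with WT-2 and WT-3. The annotation used here gives no name or function for these 3 identifiers.

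OsMADS58 (LOC_Os05g11414), the gene under study, was itself among the 948 higher genes. It was at 2.097 CPM in 58Z-1 and 8.38 CPM in WT-1, against 0.719, 3.29 and 4.01 CPM in 58Z-2, WT-2 and WT-3. The deviations were 1.51 in 58Z and 1.20 in WT. Within the wild type the level in WT-1 was thus above both replicates, but in the dSpm line 58Z-2 was the library apart, since 58Z-4b and 58Z-5b were at 1.79 and 2.002 CPM. With those 2 libraries as the comparison the gene no longer passed 1 in both genotypes. In 58CRIS-1 and 58CRIS-2 it was at 0.270 and 0.471 CPM, which is lower than in 58Z-4b and 58Z-5b (log2 fold change -2.32 with a standard error of 0.44, edgeR adjusted p = 0.00690).

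**Figure D4:**
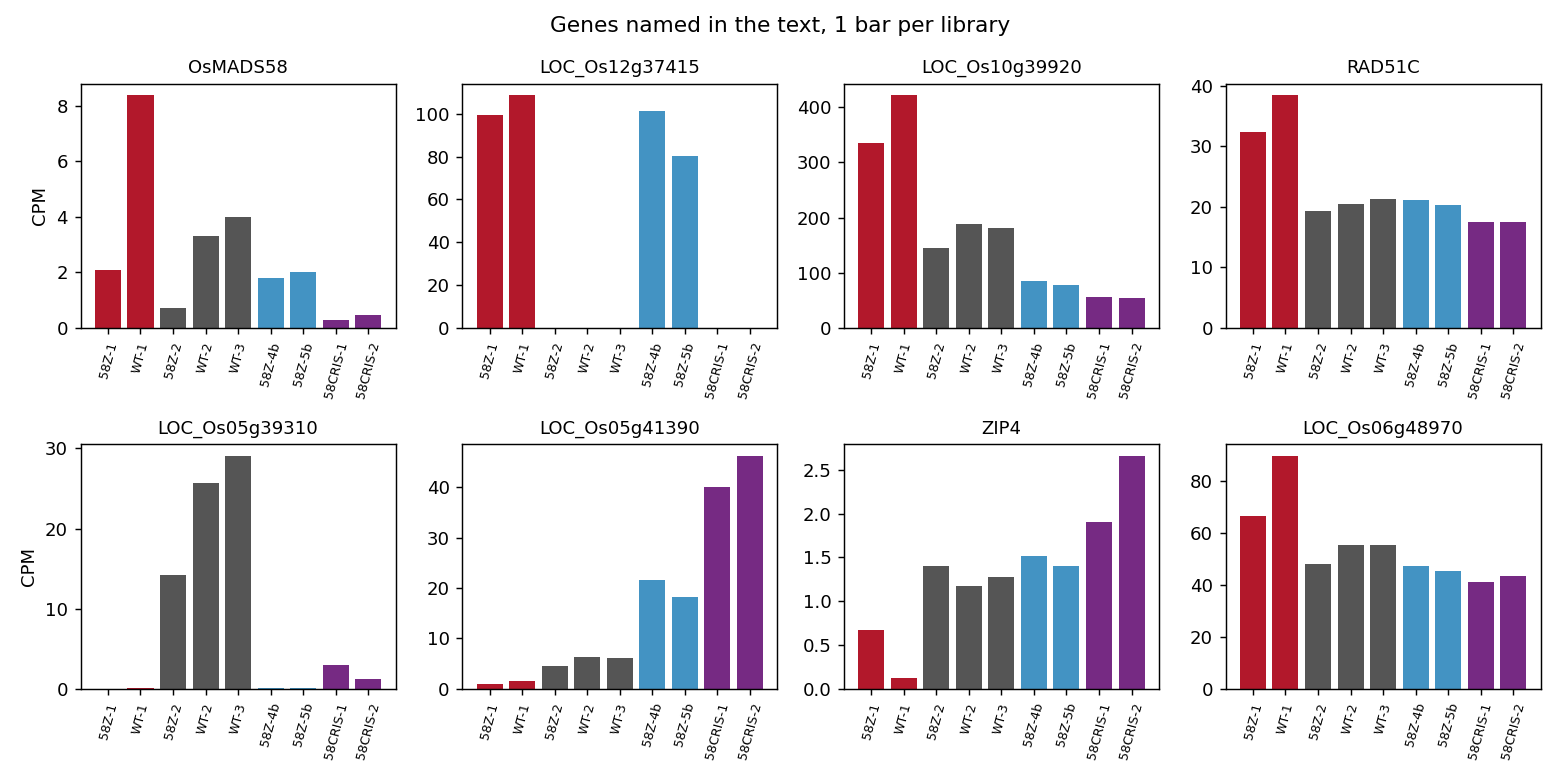
CPM of 8 genes in each library (bars, 1 library each), with 58Z-1 and WT-1 in red, 58Z-2, WT-2 and WT-3 in grey, 58Z-4b and 58Z-5b in blue and 58CRIS in purple. LOC_Os12g37415 is near 0 in 5 libraries. LOC_Os05g41390 climbs to 39.99 and 46.2 CPM in 58CRIS, while LOC_Os10g39920 has its highest levels, 334 and 422 CPM, in the pair.

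Most of the listed meiosis genes had lower values in the pair. All 27 genes of the meiosis list were measured, and 6 of them were under -1 in both 58Z-1 and WT-1 (22.2%, against 7.01% of all genes), while 0 were over 1. The 6 averaged 0.663 to 14.5 CPM over the 5 libraries. Among all genes the share under -1 was 15.4% at 0.25 to 1 CPM, 11.4% at 1 to 4 CPM and 5.44% at 4 to 16 CPM. In 19 of the 27 both deviations were negative (70.4%), against 33.9% of all genes tested, and in 4 both were positive (14.8%), against 31.8%. The list's median deviation was -0.66 in 58Z and -0.76 in WT, against 0 in both for all genes. The summed level did not follow, at 521 CPM in 58Z-1 and 744 CPM in WT-1, against 573, 627 and 634 CPM in 58Z-2, WT-2 and WT-3. The study drew this list from genes that changed in these same samples, WT-1 included, so its direction is no independent evidence.

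The 6 lower meiosis genes had CPM of 0.202 to 6.56 in 58Z-1 (median 1.65) and of 0.124 to 5.43 in WT-1 (median 1.52). In 58Z-2 they ran between 1.01 and 18.9 (median 5.05), in WT-2 between 0.686 and 20.7 (median 5.49) and in WT-3 between 1.17 and 21.4 (median 5.33). LOC_Os05g41390, which the study also lists as a cell cycle gene, was at 0.995 CPM in 58Z-1 and 1.59 CPM in WT-1, against 4.46, 6.31 and 6.12 CPM in 58Z-2, WT-2 and WT-3. It was at 21.7 and 18.3 CPM in 58Z-4b and 58Z-5b and at 39.99 and 46.2 CPM in 58CRIS-1 and 58CRIS-2. The 4 groups of libraries did not overlap for this gene, and the pair was the lowest of them. The log2 fold change of 58CRIS over 58Z-4b and 58Z-5b was 1.13 with a standard error of 0.12 (edgeR adjusted p = 0.000853).

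The levels in the other libraries are a description, since the order of the libraries was known from the first component and the list was drawn from these samples. The means of the pair, of 58Z-2 with WT-2 and WT-3, of 58Z-4b with 58Z-5b and of 58CRIS went up step by step in 19 of the 27 meiosis genes and down in 4 of them. Over all genes tested 11.7% went up and 8.19% went down in this way. LOC_Os01g59120, chosen after its values were seen, is an example. It was at 6.17 CPM in 58Z-1 and 5.43 CPM in WT-1, against 18.9, 20.7 and 21.4 CPM in 58Z-2, WT-2 and WT-3, and reached 46.6 and 38.7 CPM in 58Z-4b and 58Z-5b and 104 and 102 CPM in 58CRIS.

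A few meiosis genes ran the other way. DMC1A, the strand-exchange protein that works only in meiotic recombination, was at 8.16 CPM in 58Z-1 and 12.2 CPM in WT-1, against 4.85, 5.03 and 4.78 CPM in 58Z-2, WT-2 and WT-3. Its deviations were 0.75 and 1.31, so it did not pass 1 in 58Z. LOC_Os07g43260 had deviations of 1.03 in 58Z and 0.96 in WT. Levels of both genes in the other 4 libraries were lower still, with 2.39, 2.32, 1.68 and 1.60 CPM of DMC1A in 58Z-4b, 58Z-5b, 58CRIS-1 and 58CRIS-2.

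The 18 cell cycle genes listed by the study, 5 of which are also in its meiosis list, leaned the same way. Of these, 3 were under -1 and 1 was over 1 in both libraries, 11 were negative in both (61.1%) and 3 positive in both (16.7%). The shares called were 16.7% lower and 5.56% higher, against 7.01% and 3.48% of all genes, and 33.9% of all genes were negative in both. This list too was drawn from genes that changed in these samples. The median deviation was -0.71 in 58Z and -0.34 in WT. Here 58Z-4b and 58Z-5b stood with 58CRIS, not with 58Z-2. The list's median log2 level relative to 58Z-2, WT-2 and WT-3 was -0.58 in 58Z-1 and -0.35 in WT-1, but 1.91, 1.63, 1.80 and 2.06 in 58Z-4b, 58Z-5b, 58CRIS-1 and 58CRIS-2.

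LOC_Os03g31880 was at 1.48 CPM in 58Z-1 and 0.220 CPM in WT-1, against 6.24, 1.05 and 1.21 CPM in 58Z-2, WT-2 and WT-3. The 1 higher gene, LOC_Os10g39920, was strongly expressed, with 334 CPM in 58Z-1 and 422 CPM in WT-1, against 144, 188 and 181 CPM in 58Z-2, WT-2 and WT-3. It was at 84.7 and 77.2 CPM in 58Z-4b and 58Z-5b and at 56.7 and 53.4 CPM in 58CRIS, an order opposite to that of LOC_Os05g41390. Because of such abundant members the summed level of the list did not follow its median, at 852 CPM in 58Z-1 and 1040 CPM in WT-1, against 835, 893 and 874 CPM in 58Z-2, WT-2 and WT-3.

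Known meiotic genes named by the study, 30 in all, did not move as a block. Of these, 1 was under -1 in both libraries, 0 were over 1, 11 were negative in both (36.7%) and 7 were positive in both (23.3%). Over all genes tested, 7.01% were under -1, 33.9% negative in both and 31.8% positive in both. The medians were -0.10 in 58Z and -0.06 in WT. The exception was ZIP4, a scaffold of crossover formation, at 0.672 CPM in 58Z-1 and 0.124 CPM in WT-1, against 1.41, 1.17 and 1.27 CPM in 58Z-2, WT-2 and WT-3. These are 50 and 9 counts, against 92, 87 and 100 counts, with deviations of -1.04 and -3.06.

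Members that were higher in both libraries, each by less than 1, included 3 that act in DNA repair. RAD51C, a protein of DNA repair by homologous recombination, was at 32.4 CPM in 58Z-1 and 38.5 CPM in WT-1, against 19.3, 20.5 and 21.4 CPM in 58Z-2, WT-2 and WT-3. RPA2C, a subunit of the replication protein A that coats single-stranded DNA, was at 39.9 and 42.3 CPM, against 24.4, 21.27 and 27.3 CPM in the same order of libraries. RAD51D, which acts in the same repair pathway, was at 40.7 and 45.1 CPM, against 30.5, 34.8 and 33.2 CPM. For all 3 genes both libraries of the pair lay above 58Z-2, WT-2 and WT-3. Such a position is common at their level. Of all genes of at least 10 CPM, 43.5% were positive in both deviations and 24.3% lay above all of the other 7 libraries. RPA2C was also at 36.6 CPM in 58Z-4b and 28.0 CPM in 58Z-5b.

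Other members lay on the other side, also by less than 1, and genes of similar function were found on both. MSH5, which stabilises recombination intermediates, was at 9.21 CPM in 58Z-1 and 19.7 CPM in WT-1, against 17.4, 23.6 and 21.0 CPM in 58Z-2, WT-2 and WT-3. RPA1C, another subunit of replication protein A, had deviations of -0.68 in 58Z and -0.41 in WT, and AM1, needed for entry into meiosis, of -0.68 and -0.23. SPO11-1, which makes the DNA breaks that start recombination, had -0.36 and -0.10. In each of these 4 genes the WT deviation was smaller in size than that of 58Z.

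MEL1, MEL2 and ASY1/PAIR2, also among the known meiotic genes, gave no shared deviation beyond 1. MEL1, an Argonaute of rice germ cells, was at 48.2 CPM in 58Z-1 and 122 CPM in WT-1, against 54.0, 124 and 131 CPM in 58Z-2, WT-2 and WT-3, and at 272 and 295 CPM in 58Z-4b and 58Z-5b. MEL2, an RNA-binding protein for the switch to meiosis, had a deviation of 0.70 in 58Z and -0.84 in WT. The axis protein ASY1/PAIR2 had 0.01 and -0.09. Markers of other cell types were not annotated in the sources used here.

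Redox genes followed the shares of all genes. Of the 212 oxidation-reduction genes that the study lists, also drawn from these samples, 7 were over 1 and 16 under -1 in both libraries, with 64 positive and 71 negative in both. These are 3.30% and 7.55% of the list, against 3.48% and 7.01% of all genes. The median deviation was -0.15 in 58Z and 0.06 in WT. LOC_Os07g15970 and LOC_Os06g35630 had the largest upward deviations. The first had 49 counts in 58Z-1 and 146 in WT-1, against 0, 36 and 17 counts in 58Z-2, WT-2 and WT-3, and the second had 176 and 52 counts, against 36, 0 and 12 counts. Both are weakly expressed, and neither passed 1 in both genotypes with 58Z-4b and 58Z-5b in place of 58Z-2.

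Among the redox genes below, LOC_Os03g52860 was at 15.1 CPM in 58Z-1 and 3.27 CPM in WT-1, against 68.6, 21.1 and 11.05 CPM in 58Z-2, WT-2 and WT-3. It was at 59.8 and 67.0 CPM in 58Z-4b and 58Z-5b but at 1.70 and 1.35 CPM in 58CRIS-1 and 58CRIS-2. Its low level was thus not particular to the pair. LOC_Os06g37080 was at 1.56 CPM in 58Z-1 and 0.604 CPM in WT-1, against 7.03, 4.97 and 4.56 CPM in 58Z-2, WT-2 and WT-3. A list of 11 redox and cell cycle genes chosen for RT-qPCR held 1 gene under -1 in both libraries, LOC_Os05g41390, and 0 over 1. The 1 gene is 9.09% of the list, near the 7.01% of all genes, and 3.48% of all genes were over 1. LOC_Os08g34210, the member with the largest upward shared deviation, was at 103 CPM in 58Z-1 and 123 CPM in WT-1, against 66.6, 95.9 and 85.4 CPM in 58Z-2, WT-2 and WT-3.

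LOC_Os06g48970, the internal reference of the study's RT-qPCR, was also higher in the pair. It was at 66.6 CPM in 58Z-1 and 89.7 CPM in WT-1, against 47.9, 55.2 and 55.4 CPM in 58Z-2, WT-2 and WT-3. The other 4 libraries lay between 41.0 and 47.2 CPM. The deviations, 0.48 in 58Z and 0.70 in WT, were larger than the difference of 0.00 between WT-2 and WT-3. The gene was added to those named after its values were seen.

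Nuclear photosynthesis genes gave no shared direction. The 8 tested genes of a list of 9 nuclear photosynthesis genes had 0 over 1 and 0 under -1 in both, and 4 of them moved in opposite directions. Over all 27251 genes tested, 3.48% were over 1, 7.01% were under -1 and 9370 had deviations of unequal sign. With only 8 genes, 0 calls is near those shares and says little about the list. Their median deviation was 0.39 in 58Z and -0.36 in WT. PsaE, a subunit of photosystem I, was at 33.3 CPM in 58Z-1 and 19.3 CPM in WT-1, against 17.1, 17.4 and 15.9 CPM in 58Z-2, WT-2 and WT-3. PsbO, of the oxygen-evolving complex of photosystem II, was at 53.7 and 26.3 CPM, against 41.4, 35.9 and 35.6 CPM.

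Identifiers that start with LOC_Osp1g, which by the naming of this annotation belong to the chloroplast genome, had a higher summed level in the pair. Their products are not annotated in the sources used here, and the group was chosen after its values were seen. Of 103 identifiers 78 were tested, 22 were over 1 (28.2%, against 3.48% of all genes) and 0 under -1 in both libraries, and 48 were positive in both. Their summed level was 815 CPM in 58Z-1 and 681 CPM in WT-1, against 444, 376 and 388 CPM in 58Z-2, WT-2 and WT-3. The sum was 327 and 430 CPM in 58Z-4b and 58Z-5b and 370 and 371 CPM in 58CRIS, so the pair lay above the other 7. With counts scaled to the library totals alone the values were 756 in 58Z-1 and 599 in WT-1, against 446, 360 and 372 in 58Z-2, WT-2 and WT-3.

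**Figure D5:**
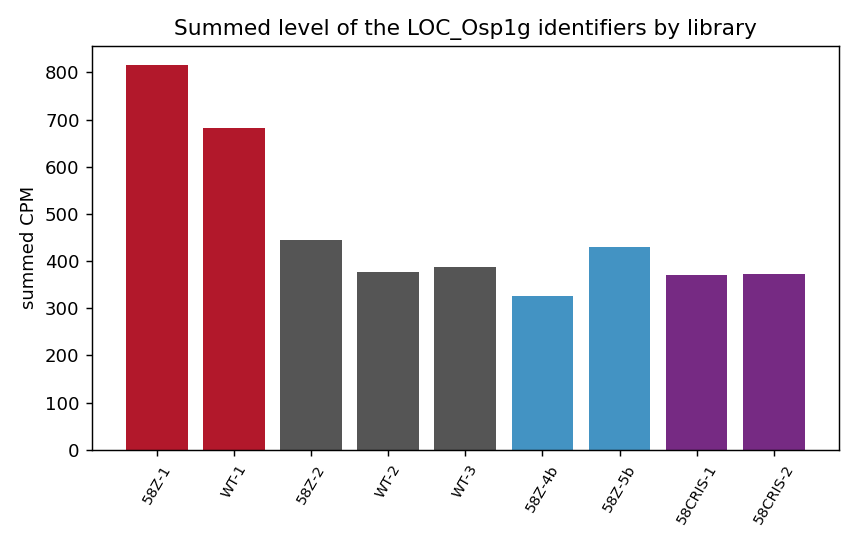
Summed CPM of the identifiers that start with LOC_Osp1g in each library (bars, 1 library each, colours as for the single genes). 58Z-1 and WT-1 are at 815 and 681 CPM, and the other 7 libraries lie between 327 and 444 CPM.

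Of these identifiers 16 averaged at least 10 CPM, and 6 of the 16 were over 1 in both libraries and above the other 7. Over all genes of at least 10 CPM, 2.22% were over 1 in both and 24.3% lay above the other 7. A gene over 1 in both already lies above its own comparison libraries, so part of this is fixed by the call. The sum was carried in good part by LOC_Osp1g00220, at 207 CPM in 58Z-1 and 160 CPM in WT-1, against 36.9, 25.2 and 23.2 CPM in 58Z-2, WT-2 and WT-3. Its deviations of 2.49 and 2.72 were the second largest upward among genes of at least 10 CPM, after LOC_Os12g37415. The libraries were made from RNA selected by poly(A) tails, which most chloroplast transcripts of plants lack. The identifiers that start with LOC_Osm1g, which by the same naming are mitochondrial, had 7 over 1 (17.9%, against 3.48% of all genes) and 0 under -1 among 39 tested. Their sums were 71.6 CPM in 58Z-1 and 45.3 CPM in WT-1, against 39.5, 44.7 and 36.9 CPM in 58Z-2, WT-2 and WT-3. There WT-1 was near its own replicates, and the 58CRIS libraries, at 69.1 and 59.5 CPM, lay above WT-1.

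The 4 libraries outside these deviations were then tested against each other. Their own places on the first component were known when the pair was chosen, so this is no independent support. With edgeR's quasi-likelihood test at an adjusted p under 0.05 and a log2 fold change beyond 1, 1799 of 25869 genes were higher in 58CRIS than in 58Z-4b and 58Z-5b (6.95%) and 2240 were lower (8.66%). At 10 CPM and over the shares were 4.11% higher and 5.50% lower. Samples of a group come from separate lines or plants as far as the methods say, but with 2 libraries a side the test rests on a spread shared among genes.

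Shared genes that were called between these libraries mostly had a fold change opposite in sign to the pair's deviation. That sign is relative to 58Z-4b and 58Z-5b only. Relative to 58Z-2, WT-2 and WT-3, the higher genes of at least 10 CPM were at -0.16 and -0.26 in 58CRIS. The lower ones were at -0.20 and -0.31 in 58CRIS, the same sign as the pair, and at -0.57 and -0.45 in 58Z-4b and 58Z-5b. Of the 289 higher genes of at least 10 CPM, 2 were higher in 58CRIS and 65 were lower (22.5%), and of the 220 lower genes 46 were higher (20.9%) and 15 were lower (6.82%). The median log2 fold change was -0.18 for the 289 and 0.39 for the 220, against -0.03 for all genes of at least 10 CPM. Over all levels, 15 of 826 tested higher genes were higher in 58CRIS and 236 were lower, and of 1698 lower genes 339 were higher and 109 were lower. Most of the shared genes were thus not called between these libraries. Among the lists, 11 of the 27 meiosis genes were higher and 3 lower in 58CRIS, and of the 18 cell cycle genes 2 were higher and 1 lower. Over all genes tested, 6.95% were higher and 8.66% lower. The study drew both lists from genes that changed in these same samples, 58CRIS included, so these counts are no independent evidence.

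The number of genes that separated the genotypes in the 5 libraries depended on the fit. Set against WT-1, WT-2 and WT-3, 58Z-1 and 58Z-2 had 19 higher genes of 25548 (0.0744%) and 4 lower ones (0.0157%) by the same test, and 2510 genes had an unadjusted p under 0.05. DESeq2 gave 559 higher and 198 lower genes. Neither fit has a term for the deviation shared by 58Z-1 and WT-1, and its part in the number of calls was not tested.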

How the data were processed

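The authors mapped reads to the rice genome MSU 7.0 with HISAT2 2.1.0 and measured genes with StringTie 1.3.3b, and deposited estimated counts for 56143 genes in 9 libraries. How coverage became counts is not given in the sources used here. Among counts from 1 to 40, multiples of 4 made up 37.2% to 40.7% per library. Rounding changed no value, and 0 columns lacked a sample.

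Counts were scaled by TMM in edgeR 4.0.16 (R 4.3.3), with a prior count of 2 for log2 CPM. A gene was shared where WT-1 and 58Z-1 deviated by over 1 in one direction within their genotypes. The pair, the members and the lists were chosen with earlier results of these data known. Tests used glmQLFit and glmQLFTest with Benjamini-Hochberg adjustment, tried on simulated data. DESeq2 1.42.0, RLE and upper-quartile scaling, filters, prior count, size, the dSpm comparison, libraries left out and counts divided by 4 were alternatives.

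Named genes were OsMADS58, the 2 genes of at least 10 CPM with the largest shared deviation in each direction, the same for each list, and named meiotic and photosynthesis genes. No identifier matched the reference table, so lists by product name could not be made.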

Additional observations from a re-analysis of the deposited data

Results flagged for a closer look

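In the 4 58Z libraries, 69 values were listed for a search for a library apart from the other 3. Known meiotic genes without a name were skipped in the search, and 11 values were found. Chance flags about 1 in 20, but these values are largely of genes chosen for their deviation in 58Z-1, so the number found supports nothing. In 8 of the 11 the library was 58Z-1. Its high values were 207 CPM of LOC_Osp1g00220, 103 CPM of LOC_Os08g34210, 66.6 CPM of LOC_Os06g48970, 32.4 CPM of RAD51C and 6.44 CPM of PsbR. Its low values were 15.1 CPM of LOC_Os03g52860, 14.4 CPM of AM1 and 0.672 CPM of ZIP4. For LOC_Os05g39310 and LOC_Os06g04940 the library apart was 58Z-2, at 14.2 and 12.8 CPM. SDS was at 6.79 CPM in 58Z-5b, below the other 58Z libraries.

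For 3 named genes the deviations were over 0.5 in opposite directions, a difference that was not tested. PAIR3/ASY3, a protein of the chromosome axis, had -1.25 in 58Z and 0.74 in WT. MEL2 had 0.70 in 58Z and -0.84 in WT, and PsbR, a subunit of photosystem II, had 0.82 in 58Z and -1.56 in WT.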

How the results depend on the processing

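With the size set at 1.5, 387 genes were higher and 1029 lower (48 and 65 at 10 CPM and over), and at 0.58 there were 2449 and 3409 (1298 and 774). With counts divided by 4, 604 were higher and 1273 lower, and r over all genes was 0.44. Other scalings, filters, prior counts, comparison libraries and either WT replicate left out kept these counts within 1.5 times, but with upper-quartile factors 198 were higher and 281 lower at 10 CPM and over, so the balance turned. Of 14 named genes that were shared, 10 stayed so with either dSpm comparison that used 58Z-4b and 58Z-5b, without OsMADS58, LOC_Os12g37415, LOC_Os07g15970 and LOC_Os06g35630, and 14 under the other scalings, prior count, left-out WT libraries and divided counts.

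List medians moved with the dSpm libraries used. With 58Z-2, 58Z-4b and 58Z-5b as the comparison the mean of the deviations was -1.22 for cell cycle genes, against -0.60 before, -1.002 for meiosis genes, against -0.70, and -0.32 for known meiotic genes. With 58Z-4b and 58Z-5b only, the values were -1.47, -1.09 and -0.42, and -0.23 for the RT-qPCR genes. With upper-quartile scaling the medians were -0.79 for meiosis, -0.21 for known meiotic and -0.17 for RT-qPCR genes. The RT-qPCR median, -0.08 with all libraries, was 0.0046 without WT-2 and -0.058 without WT-3.

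Between 58CRIS and 58Z-4b with 58Z-5b, the genes lower numbered 1336 to 1990 with 1 library left out, the fewest without 58Z-5b. The 23 calls between 58Z and WT were less firm. DESeq2 gave 559 higher and 198 lower, no filter 116 and 16, and leaving out 1 library 0 to 2 higher and 0 to 1 lower. With 58Z-1 and WT-1 set against 58Z-2, WT-2 and WT-3 as a block, 375 were higher and 90 lower, 84 of the 465 being shared genes of the pair. That block is the pair chosen from these same counts, so its calls are a description and support nothing. Of the 27251 genes measured for the deviation, 3.48% were shared higher genes and 7.01% shared lower genes. Only 2 numbers are common to both groups, and nothing says that a number marks shared plants or days. The causes were not tested.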
